A study of Rattus norvegicus with 12 samples.

Results

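Peaks of 2 histone marks, H4K5ac and H3K23ac, were set against each other in cells of the condition labelled SIANK, which were vascular smooth muscle cells from rat in primary culture, the cells that contract in the artery wall. All peaks of the 4 lists of these marks in that condition were taken: 468 and 1711 H4K5ac peaks and 14356 and 17141 H3K23ac peaks in libraries 1 and 2, in all 33676 of the 94690 peaks of the series. The series profiled 3 marks by CUT&Tag, in which an antibody to a mark tethers a transposase that cuts and tags the DNA beside it, in the conditions NC and SIANK with 2 libraries of each mark and condition. The labels give no agent, dose, time, genotype or animal for either condition and do not spell out SIANK or NC. They do not say whether libraries 1 and 2 came from separate cultures or animals, so the spread between libraries may be technical. Cell identity was not checked against marker genes here, because the lists hold positions only and no gene names were assigned. The lists hold no read counts, so the depth behind them is unknown and a peak missing from a list may lie below its threshold.

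H4K5ac is acetylation of lysine 5 on the tail of histone H4, a charge-removing change that loosens the hold of the tail on DNA. It is found on H4 that has just been made and is being packed behind the replication fork, and also at active promoters and enhancers. H3K23ac is acetylation of lysine 23 on the tail of histone H3, an abundant acetylation that enzymes such as KAT6A place and that marks active chromatin. H3K27ac, used here for comparison, is the usual mark of active enhancers and promoters.

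The H4K5ac lists were sparse and their peaks short beside those of H3K23ac. H4K5ac peaks had a median length of 453 bp in library 1 and 468 bp in library 2, and H3K23ac peaks one of 691 and 830 bp. The longest H4K5ac peaks reached 1927 and 2364 bp and the longest H3K23ac peaks 7744 and 10637 bp. H3K23ac library 2 thus held both more and longer peaks than library 1, covering 17.6 against 12.6 Mb, and each result is given on both lists for that reason. Each H4K5ac peak was called inside when all of its bases lay in 1 H3K23ac peak, at the edge when it shared at least 1 base with one and had at least 1 base outside, and away when it shared none.

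Most H4K5ac peaks touched H3K23ac, most of those lay wholly inside it, and a large minority stood apart. Averaged over both H3K23ac lists, 38.4% of H4K5ac peaks were inside in library 1 and also 38.4% in library 2, while 22.6% and 23.2% were at an edge and 39.0% and 38.5% were away. The means over the H4K5ac libraries were 38.4 ± 0.0104% inside, 22.9 ± 0.371% at an edge and 38.7 ± 0.381% away (SD, n = 2). These SDs leave out the spread between the H3K23ac lists, over which each value had been averaged. H4K5ac library 2 held many more peaks than library 1, and over the full lists its division among the classes was nearly the same. That did not hold for lists of equal length, made of the longest peaks of each list up to the number in the shorter one. H4K5ac library 1 thus stayed whole, while library 2 was cut from 1711 to its 468 longest peaks. H3K23ac list 2 was cut as well. In these lists 38.0 and 34.2% of the peaks of H4K5ac libraries 1 and 2 were inside and 19.9 and 33.1% at an edge. Away were 42.1 and 32.7%. Over the full lists, edge peaks of library 2 were longer than inside peaks, with medians of 563 and 559 bp against 455 and 458 bp.

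Over the full lists, the shares differed more between the H3K23ac lists than between the H4K5ac lists. Against H3K23ac list 1, 136 of 468 peaks of H4K5ac library 1 were inside (29.1%, exact 95% binomial interval 24.98 to 33.4), 112 at an edge (23.9%) and 220 away (47.0%). Against H3K23ac list 2, 223 of the same peaks were inside (47.6%, 43.1 to 52.3), 100 at an edge (21.4%) and 145 away (31.0%). For H4K5ac library 2, 518 of 1711 peaks were inside on H3K23ac list 1 (30.3%, 28.1 to 32.5) and 795 on list 2 (46.5%, 44.1 to 48.9), and 763 (44.6%) and 553 (32.3%) were away. The intervals cover counting error over peaks only, since the peaks of a list share 1 library. Edge shares stayed between 21.2 and 25.1% in the 4 pairs of lists, while the inside shares on H3K23ac list 1 lay below those on list 2 for both libraries. The number and length of the H3K23ac peaks move with this difference, and their part in it was not tested.

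**Figure D1:**
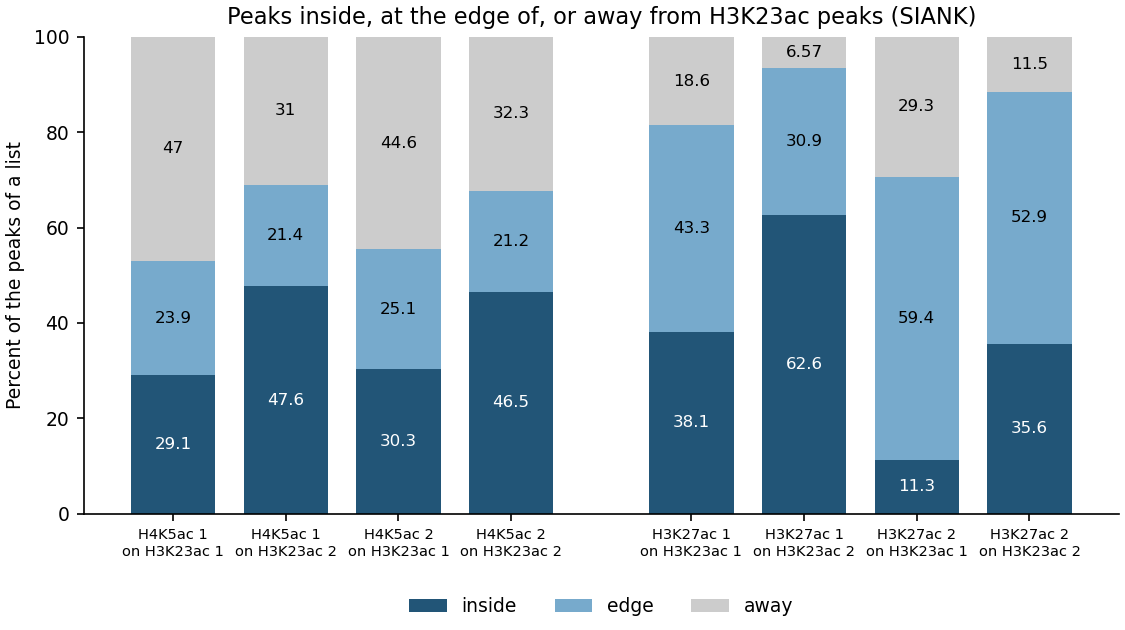
Percent of the peaks of each H4K5ac list (left 4 bars) and each H3K27ac list (right 4 bars) of SIANK cells that lie inside, at the edge of, or away from the peaks of H3K23ac list 1 or 2; each bar is 1 pair of lists and adds up to all its peaks. The inside share of H4K5ac is 29.1 and 30.3% on H3K23ac list 1 and 47.6 and 46.5% on list 2, and H3K27ac has fewer peaks away than H4K5ac on each H3K23ac list.

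Single H4K5ac peaks moved between classes mostly in one direction from H3K23ac list 1 to list 2. In H4K5ac library 1, 125 peaks were inside in both lists, 65 went from edge to inside, 33 from away to inside and 50 from away to edge. The reverse moves were rare, with 8 from inside to edge, 3 from inside to away and 5 from edge to away. In H4K5ac library 2 the inside peaks of both lists numbered 472, the moves toward H3K23ac were 219, 104 and 149, and the reverse moves were 36, 10 and 33. The peaks that were away in both lists numbered 137 (29.3%) and 510 (29.8%), again close to the same share of each library.

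Few of the H4K5ac peaks away from H3K23ac lay within 1 kb of it. The gaps that even placement over the genome would give were not worked out, so no separation beyond that is shown. The median gap to the nearest H3K23ac peak was 48100.5 bp for library 1 and 36603 bp for library 2 on H3K23ac list 1, and 35847 and 35621 bp on list 2. Within 1 kb of an H3K23ac peak lay 8 of 220, 1 of 145, 27 of 763 and 14 of 553 of these peaks in the 4 pairs of lists, or 0.69 to 3.64%. Between 21.3 and 29.5% were more than 100 kb from any H3K23ac peak. The away peaks of H3K27ac lay closer, with 11.99 to 17.1% within 1 kb and median gaps of 8440 to 18708 bp. The H3K27ac lists are longer than those of H4K5ac, and this difference was described and not tested.

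The typical edge peak crossed the boundary of H3K23ac by a short stretch. The median edge peak had 115, 82.5, 127.5 and 107 bp outside H3K23ac in the 4 pairs of lists, or 14.6 to 23.9% of its own length. Counted with the edge peaks were those that enclosed a whole H3K23ac peak. On H3K23ac lists 1 and 2 they numbered 13 and 19 in library 1, beside 112 and 100 edge peaks. In library 2 they numbered 79 and 81, beside 430 and 363. In bases, 46.1 and 63.6% of the length of H4K5ac library 1, and 49.6 and 64.0% of library 2, lay in H3K23ac peaks of lists 1 and 2.

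The other marks divided H4K5ac peaks along the same line as H3K23ac. Of the H4K5ac peaks with H3K23ac in both lists, 230 of 240 in library 1 (95.8%, exact 95% interval 92.5 to 97.98) and 873 of 905 in library 2 (96.5%, 95.0 to 97.6) also shared bases with an H3K27ac peak of a SIANK library. Of those with H3K23ac in neither list, 9 of 137 (6.57%, 3.05 to 12.1) and 41 of 510 (8.04%, 5.83 to 10.7) did so. Over all peaks of a list the shares were 63.0 and 64.5%. Nearly all of this rested on H3K27ac library 2, the longer list. With H3K27ac library 1 alone, 77 of 240 (32.1%) and 315 of 905 (34.8%) of the H4K5ac peaks with H3K23ac in both lists had H3K27ac, against 1 of 137 (0.730%) and 6 of 510 (1.18%) of those with H3K23ac in neither. The peaks with H3K23ac in list 2 only stood between, at 61.4% of 83 and 69.6% of 253. Most H4K5ac peaks thus either shared bases with both H3 acetylations or with neither, taking any library of H3K27ac. H3K23ac regions mostly had H3K27ac in any case: 10375 of the 11242 found in both SIANK libraries shared bases with it. H3K27ac library 1 alone touched 27.5% of all peaks of H3K23ac list 1 and 26.1% of list 2. Whether the H4K5ac peaks with H3K23ac had H3K27ac beyond these shares was not tested.

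The NC lists did not define these groups and gave the same order. Their H3K23ac lists are of the mark that made the groups, so this order is not separate support for them. The share of all SIANK H3K23ac peaks with H3K23ac in NC was not computed. H3K23ac was found in at least 1 NC library at 216 of 240 and 832 of 905 (91.9%) H4K5ac peaks with H3K23ac in both SIANK lists, and at 8 of 137 (5.84%) and 24 of 510 (4.71%) of those with H3K23ac in neither. Over all peaks of the H4K5ac lists the shares were 58.5 and 58.9%. H4K5ac itself was found in an NC library at 47.9% of the former and 30.7% of the latter in H4K5ac library 1, and at 20.9 and 13.9% in library 2, beside 41.0 and 18.3% over all peaks of these lists. The NC lists of H4K5ac are shorter, with 100 and 371 peaks.

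Most H4K5ac peaks of library 1 were found again in library 2, also where H3K23ac was missing. In library 1, 112 of the 137 peaks with H3K23ac in neither list also had an H4K5ac peak in library 2 (81.8%, 74.2 to 87.8), against 217 of the 240 with H3K23ac in both lists (90.4%, 86.0 to 93.8) and 403 of all 468 (86.1%). In library 2, the longer list, 22.2 and 24.0% were found again in library 1, against 23.4% of all its peaks. The peaks without H3K23ac were shorter, with medians of 441 and 427.5 bp against 461.5 and 504 bp for those with H3K23ac in both lists, but included the longest peak of library 2 (2364 bp). In windows of 1 Mb, the 137 peaks of library 1 fell into 129 windows with at most 2 in any, and the 510 of library 2 into 438 windows with at most 3. The 331 and 1201 peaks with H3K23ac in at least 1 list fell into 293 and 779 windows, with at most 4 and 8. These groups held more peaks, and the part of their number in this was not tested.

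By chromosome, the share of H4K5ac peaks with H3K23ac in neither list was high on chromosome 2 and low on chromosome 6, which were picked after their values were seen. On chromosome 2 they made up 17 of 36 peaks of library 1 (47.2%, 30.4 to 64.5) and 54 of 124 of library 2 (43.5%, 34.7 to 52.7). On chromosome 6 they made up 3 of 31 (9.68%, 2.04 to 25.8) and 20 of 96 (20.8%, 13.2 to 30.3). Neither chromosome stood alone. High shares were also seen on chromosome 16, at 43.75 and 36.1%, and on chromosome 17, at 37.5 and 42.6%. Chromosome 14 was low as well, with 3 of 17 peaks of library 1 and 14 of 70 of library 2, the latter share below that of chromosome 6. The shares on chromosome 1, which held the most peaks, were 30.2 and 29.5%.

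Within H3K23ac peaks, H4K5ac midpoints lay nearer to the centre than to the ends, but inside peaks lay little nearer than even placement within the room their lengths leave. The position was taken as the distance of the H4K5ac midpoint from the H3K23ac centre divided by the distance from centre to end, so that 0 is the centre and 1 an end, and points spread evenly over a peak, without regard to the length of the H4K5ac peak around them, would have a median of 0.5. In H4K5ac library 1, 228 and 311 midpoints lay in peaks of H3K23ac lists 1 and 2, with medians of 0.309 and 0.250. In library 2, 890 and 1119 did, with medians of 0.323 and 0.260. Averaged over the H3K23ac lists, the mean over the H4K5ac libraries was 0.286 ± 0.00848 (SD, n = 2, without the spread between the H3K23ac lists). The central 20% of the distance held 38.2 and 37.3% of the midpoints of library 1 and 31.5 and 39.2% of those of library 2, and the outermost 20% held 6.58 and 2.57%, then 7.19 and 2.50%.

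**Figure D2:**
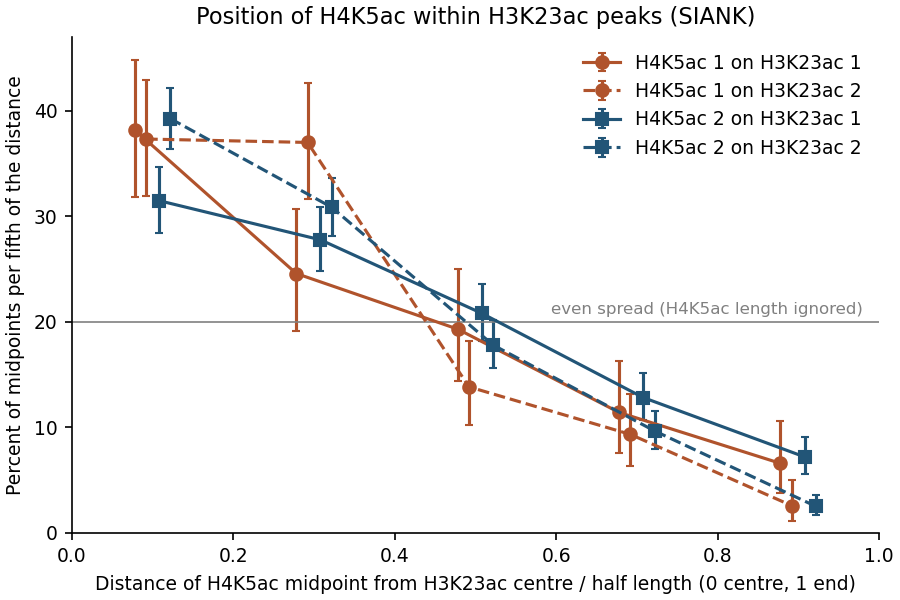
Percent of H4K5ac midpoints in each 20% of the distance from the centre (0) to the end (1) of the H3K23ac peak that holds them, for each pair of SIANK lists; bars are exact 95% binomial intervals, points are shifted sideways for legibility, and the grey line is an even spread of points, which takes no account of the length of the H4K5ac peaks. All 4 lines pass from above the grey line near the centre to below it near the end, from 31.5 to 39.2% in the central bin to 2.50 to 7.19% in the outermost; with that length taken into account the medians of inside peaks are 0.458 to 0.492, beside 0.5 for even placement.

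The lengths of the peaks limit where a midpoint can lie. An inside H4K5ac peak took up a median of 43.2 to 44.2% of its H3K23ac peak. With the distance of inside peaks divided by the largest distance their length allows, the medians were 0.458 and 0.482 in library 1 and 0.492 and 0.484 in library 2, beside 0.5 for placement at any allowed position alike. Where the H3K23ac peak was at least 3 times as long as the H4K5ac peak, the medians were 0.441 and 0.357 in library 1 (40 and 71 midpoints) and 0.431 and 0.362 in library 2 (182 and 268). H3K27ac midpoints lay nearer to the centre of the H3K23ac peak on each list, with medians of 0.287 and 0.240 in library 1 and 0.242 and 0.173 in library 2. Over the room left, its medians were 0.510 and 0.471 in library 1 and 0.653 and 0.670 in library 2, so that the order of the marks depended on the measure. The side of lower coordinates held 49.4 to 55.3% of H4K5ac midpoints. The number of H4K5ac peaks per H3K23ac peak was nearly always 1. In library 2, 876 of the 882 H3K23ac peaks of list 1 that held a midpoint held a single one, as did 1099 of 1108 in list 2.

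Seen from H3K23ac, few peaks carried H4K5ac. With H4K5ac library 1, 247 of 14356 peaks of H3K23ac list 1 (1.72%) and 322 of 17141 of list 2 (1.88%) shared a base with an H4K5ac peak. With H4K5ac library 2 they numbered 944 (6.58%) and 1150 (6.71%). H4K5ac peaks covered 0.886 and 0.873% of the length of the H3K23ac lists in library 1 and 3.72 and 3.43% in library 2. Merged over both libraries, 935 of 11242 H3K23ac regions found in both (8.32%, 7.81 to 8.84) carried H4K5ac of either library, against 299 of 8224 found in 1 library (3.64%, 3.24 to 4.06). The regions found in both were also longer, with a median of 1186 bp against 493 bp. Among the regions found in both, 8.68% of the 10375 with H3K27ac and 3.92% of the 867 without it carried H4K5ac, and their median lengths were 1239 and 721 bp. The part of length in these differences was not tested.

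H3K23ac peaks with H4K5ac were moderately longer than those without. In H3K23ac list 1 the median length was 875 bp with and 688 bp without H4K5ac of library 1, and 907 against 679 bp for library 2. In list 2 it was 933 against 828 bp and 988.5 against 817 bp. The ratio of medians lay between 1.13 and 1.34, and its log2 averaged 0.38 in list 1 and 0.22 in list 2, with a mean of 0.30 ± 0.11 (SD, n = 2). The lower quartile was 564 against 469 bp and the upper 1179.5 against 1079 bp in list 1 for H4K5ac library 1, and 596.75 against 463 and 1297 against 1066 bp for library 2. In list 2 the lower quartiles were 613.25 against 531 and 669.25 against 526 bp, and the upper 1319.25 against 1300.0 and 1421.25 against 1288 bp. Among the merged H3K23ac regions found in both libraries the medians were nearly equal, at 1217 bp with and 1184 bp without H4K5ac (log2 ratio 0.04).

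A longer peak offers more bases to overlap, and measured against that, the H3K23ac peaks that held H4K5ac midpoints were short. The H3K23ac peak that holds the median base of list 1 was 1045 bp long and that of list 2 was 1267 bp, which is the median length that H4K5ac midpoints placed evenly over H3K23ac bases would meet. The median H4K5ac midpoint of library 1 lay in an H3K23ac peak of 902 bp in list 1 and 952 bp in list 2, or 0.863 and 0.751 times that length. For library 2 these were 941.5 and 1025 bp, or 0.901 and 0.809 times. H3K27ac library 2 gave 0.856 and 0.809 times and its library 1 gave 1.08 and 1.06 times.

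**Figure D3:**
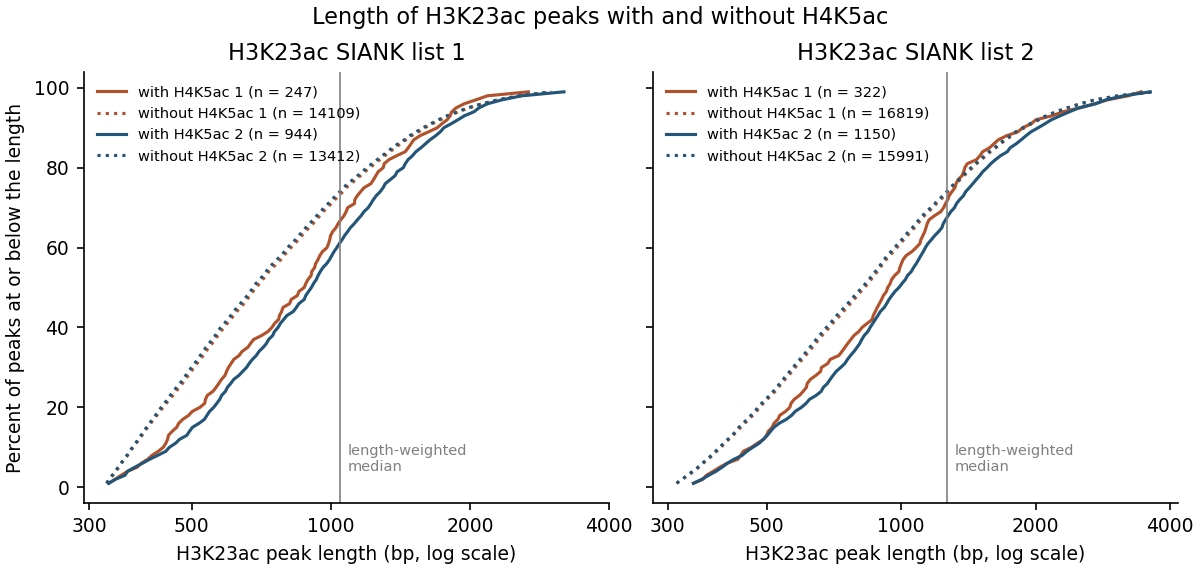
Cumulative percent of H3K23ac peaks by length (log scale, 1st to 99th percentile) in SIANK lists 1 and 2, with (solid) and without (dotted) a shared base with H4K5ac of library 1 (orange) or 2 (blue); the grey line is the length of the peak that holds the median base of the list. The solid lines lie to the right of the dotted ones at their lower quartile and median, and cross the level of 50 percent at 875 to 988.5 bp; the grey lines are at 1045 and 1267 bp.

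The density of H4K5ac per base of H3K23ac was lowest in the longest peaks in all 4 pairs of lists, in one of them barely. Each H3K23ac list was divided by length into 5 classes of equal number. For H4K5ac library 1 on H3K23ac list 1, the midpoints per Mb of H3K23ac were 15.8, 27.4, 22.5, 23.4 and 11.4 from the shortest class (322 to 435 bp) to the longest (1216 to 7744 bp). On list 2 they were 22.9, 30.5, 23.9, 21.6 and 8.59, where the longest class ran from 1443 to 10637 bp. For H4K5ac library 2 they were 56.6, 89.8, 83.0, 85.7 and 55.5 on list 1 and 76.7, 86.5, 89.6, 73.4 and 39.3 on list 2. In each pair the longest class fell below the 3 middle classes, with a mean log2 ratio of −1.07 ± 0.30 (SD, n = 2 H3K23ac lists), a contrast chosen after the values were seen. The ratio of the longest to the shortest class was less steady, with a log2 mean of −0.25 in list 1 and −1.19 in list 2 (−0.72 ± 0.67). With lists of equal length it turned on H3K23ac list 1, to 0.53, and stayed at −1.12 on list 2 (mean −0.29 ± 1.17).

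**Figure D4:**
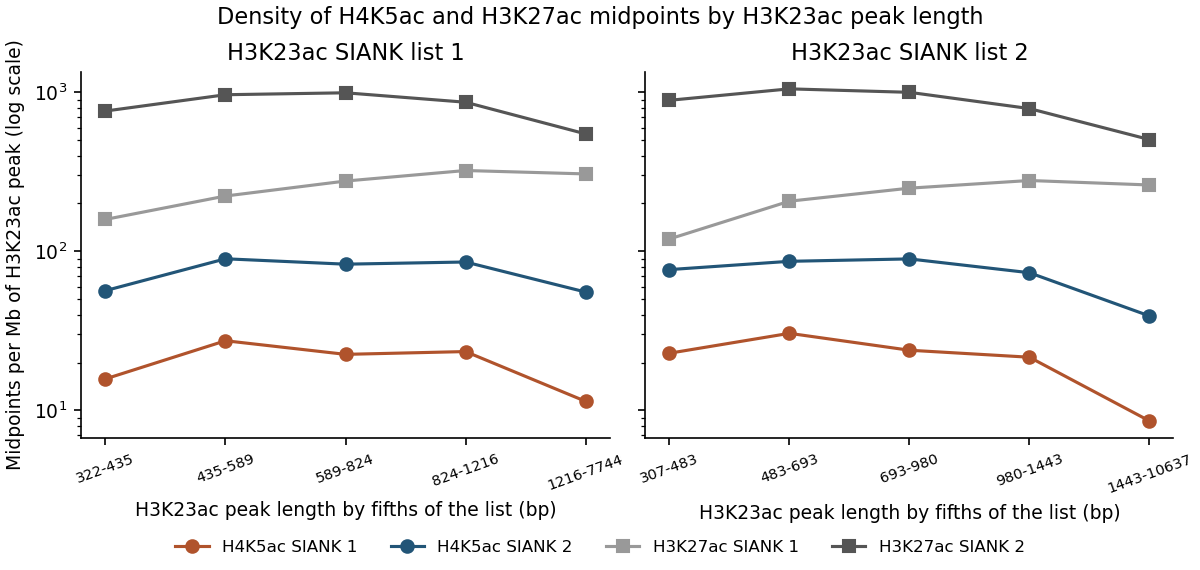
Midpoints of H4K5ac (circles) and H3K27ac (squares) peaks per Mb of H3K23ac peak (log scale) in 5 length classes of equal number of each H3K23ac SIANK list. H4K5ac library 1 is at 11.4 and 8.59 per Mb in the longest class against 27.4 and 30.5 in the next to shortest; H3K27ac library 1 is higher in the longest class than in the shortest, and H3K27ac library 2 lower.

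H3K27ac did not follow one pattern on the same H3K23ac classes. Its library 1 had 158.7 midpoints per Mb in the shortest and 306.6 in the longest class of H3K23ac list 1, and its library 2 had 762.0 and 547.5. H3K27ac library 2 touched 78.4% of the peaks of that list against 27.5% for library 1. A lower density in the longest than in the shortest peaks was thus seen for one H3K27ac list as well as for H4K5ac, whose lists touched at most 6.71% of H3K23ac peaks. The shares of peaks touched were unlike, however. On H3K23ac list 1, H3K27ac library 2 touched 48.4% of the shortest class and 99.2% of the longest. H4K5ac libraries 1 and 2 touched 0.905 and 2.86% of the shortest class and 2.12 and 9.75% of the longest.

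Broad H3K23ac peaks of at least 3 kb carried H4K5ac at shares near those of all H3K23ac peaks. In list 1, 2 of 145 had H4K5ac of library 1 (1.38%, against 1.72% of all peaks) and 13 had that of library 2 (8.97%, against 6.58%). In list 2, 9 of 372 (2.42%, against 1.88%) and 29 (7.80%, against 6.71%) had it. The same broad peaks carried H3K27ac of library 1 at 77.2 and 71.0%, against 27.5 and 26.1% of all H3K23ac peaks. They carried that of library 2 in every case, against 78.4 and 78.5% of all peaks. The longest H3K23ac peak with H4K5ac was 5557 bp in list 1 and 7026 bp in list 2, below the 7744 and 10637 bp of the longest without.

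Among H4K5ac regions found in both SIANK libraries, a large minority again had no H3K23ac. Of 401 such regions, 134 (33.4%, 28.8 to 38.3) lay inside an H3K23ac region found in both libraries, 85 (21.2%) crossed its edge, and 182 (45.4%) were away from such regions. Of these 182, 112 (27.9% of the 401, 23.6 to 32.6) shared no base with H3K23ac of either library. The 1375 H4K5ac regions found in 1 library had 629 (45.7%) inside, 97 (7.05%) at an edge and 649 (47.2%) away, with 422 (30.7%) free of H3K23ac of either library. H3K27ac of a SIANK library was found at 133 of the 134 inside regions, at 77 of the 85 edge regions and at 6 of the 112 regions without H3K23ac. H4K5ac was also found in an NC library at 65, 48 and 41 of them. For comparison, 10375 of all 11242 H3K23ac regions found in both libraries had H3K27ac of a SIANK library.

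The inside regions with the longest H4K5ac peaks showed H4K5ac over most of the H3K23ac region in 4 of 5 cases. Ranking by H4K5ac peak length favours such cover and a place near the centre. Inside peaks of the full lists took up a median of only 43.2 to 44.2% of their H3K23ac peak. Coordinates are those of the deposited lists, whose build is not named there. The leading region, chr2:157445717-157447340, had H4K5ac peaks of 1194 and 1624 bp within H3K23ac peaks of 1723 and 1874 bp. Its centre lay 21 bp from that of the H3K23ac region, and all 3 marks were also found in both NC libraries. The next was off centre: at chr9:10245394-10246608, H4K5ac lay 480.5 bp from the centre of an H3K23ac region of 2556 bp, which library 1 divided into 2 peaks. There the H4K5ac peak of library 2 began just before the first H3K23ac peak of library 1, at 10245394 against 10245399. At chr17:80733902-80735110, peaks of 1159 and 1129 bp lay 82.5 bp from the centre of an H3K23ac region of 1646 bp. At chr6:50923424-50924505, H4K5ac peaks of 988 and 1029 bp lay 41.5 bp from the centre of a region that joins H3K23ac peaks of 1035 and 736 bp, so that it was inside the joined region and not inside each peak. At chr10:103374860-103376099, H4K5ac lay 50.5 bp from the centre, and no NC library had an H4K5ac peak there. Its H4K5ac peak of library 2, of 1240 bp, enclosed the H3K23ac peak of library 1, of 1126 bp. The regions on chromosomes 9 and 10 were thus also inside the joined region and not inside each peak. All 5 carried H3K23ac in both NC libraries. They also carried H3K27ac in at least 1 SIANK library, as did most H3K23ac regions found in both libraries.

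The leading edge regions took different forms. At chr6:138057053-138058633, H4K5ac peaks of 1489 and 1561 bp enclosed short H3K23ac peaks of 333 and 436 bp, leaving 878 bp outside the merged H3K23ac region. At chr4:174244224-174246146, 134 bp of H4K5ac ran beyond an H3K23ac region of 2272 bp. At chr4:174172509-174174154 only 7 bp did so, beyond a region of 1866 bp. All 3 had H4K5ac in both NC libraries.

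**Figure D5:**
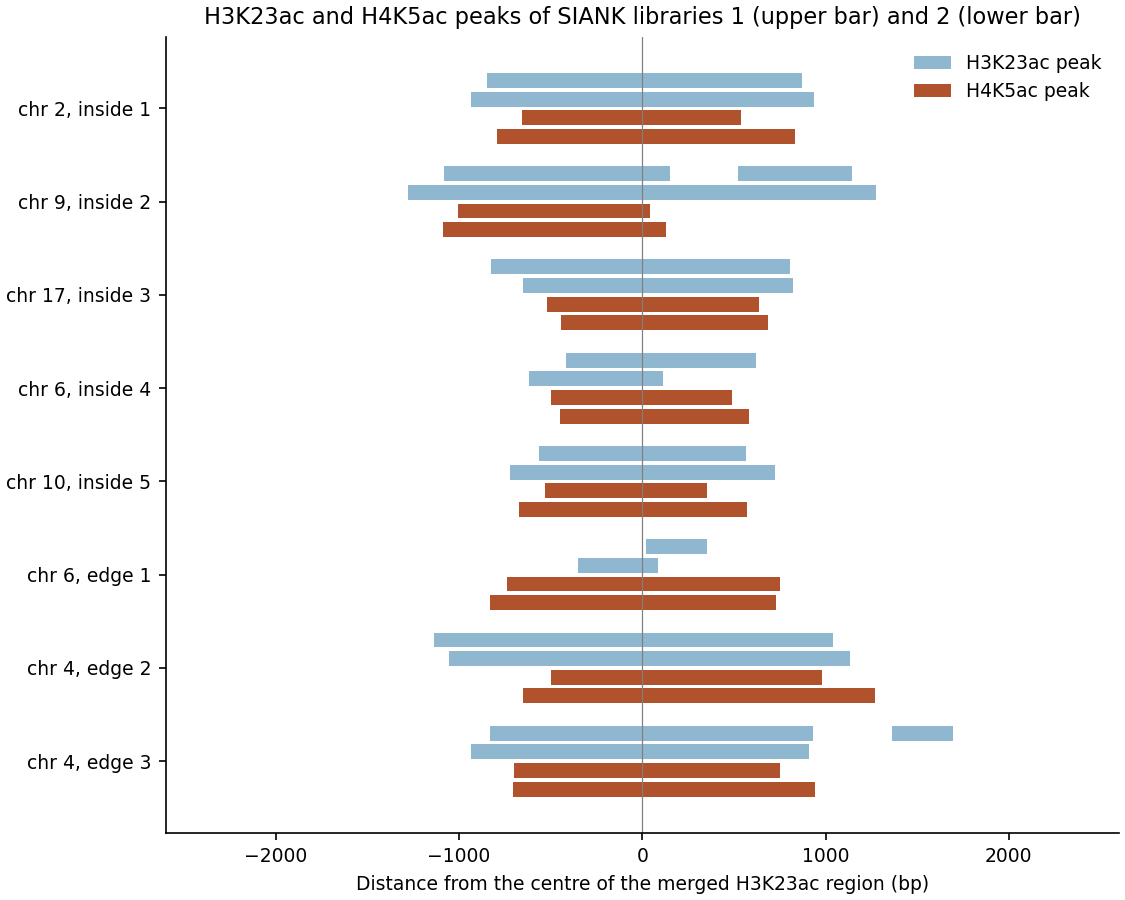
H3K23ac (blue) and H4K5ac (orange) peaks at the 5 leading inside and 3 leading edge regions of SIANK cells, by distance in bp from the centre of the merged H3K23ac region; in each colour the upper bar is library 1 and the lower bar library 2. The regions were ranked by H4K5ac peak length, which favours wide cover. H4K5ac covers most of the H3K23ac region around its centre in 4 of the 5 inside regions and is off centre by 480.5 bp on chromosome 9, and in the first edge region H4K5ac extends past short H3K23ac peaks on both sides.

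Regions of H4K5ac found in both libraries without H3K23ac were not longer as a group: their median was 715.5 bp, while inside regions had one of 743.5 bp and edge regions one of 836 bp. At least 1 kb was reached by 21 of the 112 without H3K23ac (18.8%), against 29 (21.6%) and 21 (24.7%), though the longest of all 3 groups, of 2364 bp, was among them. At chr3:146384249-146386511 the peaks were 1783 and 2263 bp long and the nearest SIANK H3K23ac peak was 20196 bp away, with no other mark in any library and no H4K5ac in NC. At chr3:110069734-110072097 they were 1609 and 2364 bp long with a gap of 25325 bp. This region had H4K5ac in both NC libraries, H3K23ac in NC library 1 and H3K27ac in SIANK library 2. The regions chr4:148150057-148152238, chr2:224898064-224899183 and chr6:138071172-138072234 had gaps of 9964, 15731 and 12938 bp and no H3K23ac or H3K27ac in any library. The H3K23ac peak nearest to the last is the one in the leading edge region. The largest gap of a reproduced region was 839570 bp, at chr1:161152247-161152901, with H4K5ac peaks of 430 and 616 bp.

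At the other extreme, the leading H3K23ac regions without H4K5ac were domains of 7817 bp at chr10:73898820-73906636, 7864 bp at chr1:221153496-221161359, and 10267 bp at chr3:148400284-148410550, the last joined from 3 and 2 peaks of libraries 1 and 2. All 3 carried H3K27ac in both SIANK libraries and H3K23ac in both NC libraries. Most H3K23ac peaks of at least 3 kb likewise touched H3K27ac of each SIANK library. The H3K23ac regions with the most H4K5ac peaks were a region of 5492 bp at chr9:98592505-98597996 and one of 3375 bp at chr6:109298291-109301665. Each held 3 H4K5ac peaks of library 2 and none of library 1. The next, of 3512 bp at chr6:110846241-110849752, held 2 of library 2 and 1 of library 1.

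A larger share of H3K27ac peaks than of H4K5ac peaks shared at least 1 base with H3K23ac. Averaged over the H3K23ac lists, 61.0 and 61.5% of H4K5ac peaks and 87.4 and 79.6% of H3K27ac peaks shared a base with H3K23ac, so that the libraries of the marks did not overlap. The difference was −22.2 percentage points (61.3 ± 0.381 against 83.5 ± 5.54%, SD, n = 2 each), and an exact permutation test, two-sided over the 6 arrangements of the libraries, gave p = 0.333. No smaller p is possible with 2 libraries in each group, so 0.05 was out of reach. Longer peaks share a base more easily, and the H3K27ac medians were 684 and 782 bp against 453 and 468 bp. The H3K27ac lists also held more peaks, 4823 and 15413 against 468 and 1711. With 50% of a peak required, the difference was −19.2 points. The part of peak length and list size in it was not tested.

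The share of H4K5ac peaks that touched H3K23ac was not shown to differ between SIANK and NC. On the H3K23ac lists of their own condition, 61.0 and 61.5% of SIANK and 57.5 and 55.1% of NC H4K5ac peaks shared a base with H3K23ac, a difference of 4.96 points (61.3 ± 0.381 against 56.3 ± 1.68%, SD, n = 2 each; exact two-sided permutation p = 0.333, again the smallest possible). With all H4K5ac lists set on the same SIANK H3K23ac lists the order turned, to 62.5 and 64.8% for NC and a difference of −2.39 points (exact permutation p = 0.333). Without H3K23ac SIANK library 2 it also turned, to −2.11 points.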

How the data were processed

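The authors deposited 1 peak list per library. Per the file headers, a list gives chromosome, start, end and length in bp, with no score, p-value or read count; length equals end minus start plus 1 throughout, so positions count from 1. BWA and deepTools are named, without roles, by the submitters' processing notes. The caller, threshold, control and, for all coordinates, the build were not given in the sources used here. IgG libraries were not analysed here. The gene table at hand is on GRCr8, where 948 of the SIANK H4K5ac and H3K23ac peaks lie beyond the last gene of their chromosome and 6.58% of H3K23ac library 2 midpoints lie within 1 kb of a gene end, against 6.98 and 6.78% once the positions are shifted. No gene names or sequences were therefore assigned.

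Groups came from the treatment label and library numbers from the title. Every H4K5ac list was compared with every H3K23ac list and averaged over the H3K23ac lists (for H3K23ac lengths and densities, over the H4K5ac lists). The class counts equalled those of bedtools 2.31.1, and the classes were recovered on simulated data. Named regions were the leading ones of each class by the lower of their within-library percentiles of peak length, the widest gap, H3K23ac regions without H4K5ac, and those with the most H4K5ac peaks. Exact permutation tests were run over libraries; intervals are exact binomial (Clopper-Pearson) with 95% confidence. The comparison and its measures were chosen with earlier results of these data known. Alternatives were list length, overlap rules, merging, a replicate block and leaving out each library. Scripts ran in Python 3.11.15 with scipy 1.17.1 for tests and intervals, pandas 2.3.3 for tables and matplotlib 3.10.9 for plots.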

Additional observations from a re-analysis of the deposited data

How the results depend on the processing

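Of 83 values under alternatives, 51 kept their direction and, for values with no test, stayed within the spread of the H4K5ac libraries (for H3K23ac length and density, of the H3K23ac libraries), 30 moved beyond it and 2 turned; no test could pass 0.05. The spread between the full H4K5ac lists is very small, so small shifts count as moved. Leaving out each library in turn, the inside share ranged from 29.7 to 47.1%, the edge share from 21.3 to 24.5%, the away share from 31.7 to 45.8%, the relative distance from the centre from 0.255 to 0.316 and the SIANK minus NC difference from −2.11 to 12.04 points; the extremes were without H3K23ac library 2 or 1. The log2 length ratio ranged from 0.22 to 0.38, the log2 density ratio from −1.19 to −0.25 and the H4K5ac minus H3K27ac difference from −26.1 to −18.3 points.

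With the upper 50% of each list by length, the inside, edge and away shares were 33.5, 10.9 and 55.5%, the relative distance 0.257 and the log2 length ratio 0.022, with one H3K23ac list above 0 and the other below. With lists of equal length the shares were 36.1, 26.5 and 37.4%, with the H4K5ac libraries far apart (edge 19.9 and 33.1%), the distance 0.258 and the log2 density ratio 0.53 on H3K23ac list 1 and −1.12 on list 2. Merging H3K23ac peaks within 1000 bp gave 38.8% inside, 22.5% at an edge and a distance of 0.306. On the union of both H3K23ac lists the shares were 50.3, 20.1 and 29.5%. Requiring 90% of a peak for inside gave 45.1%, and requiring 50% of a peak for sharing gave 42.1% away. With H3K23ac peaks at least 3 times as long the distance was 0.398, and over the room left it was 0.479. In H3K23ac regions found in both libraries, an alternative chosen after seeing the data, the log2 length ratio was 0.040. NC lists set on the SIANK H3K23ac lists turned the SIANK minus NC difference to −2.39 points.

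The replicate block, which uses same-numbered lists only, gave 37.8% inside and 39.7% away, −24.6 points for H4K5ac minus H3K27ac and 2.71 points for SIANK minus NC (exact permutation p = 0.5, the smallest possible, and 1), and changed no call. Sharing with H3K23ac averaged 60.3% for same-numbered and 62.2% for different-numbered lists, so nothing in the labels or these values shows that the numbers pair the libraries. Depth is unknown, so a peak away from H3K23ac may have H3K23ac below the threshold of its list.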
